A study of Homo sapiens and Mus musculus with 22 samples.

Results

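The genes described here encode the ligands by which tumour cells trigger the activating receptors NKG2D and NKp30 of natural killer (NK) cells. They were chosen by symbol: 6 human genes (MICA, MICB, ULBP1, ULBP2, ULBP3 and NCR3LG1), all 6 of which are listed in both human count tables, and 4 mouse genes (Ulbp1, Raet1d, Raet1e and H60b), of which 3 are listed in the mouse table and Ulbp1 is not. They stand among 25435, 20113 and 24047 genes in the 3 tables. RNA was sequenced from small cell lung cancer (SCLC) lines whose groups carry a label for the level of MHC class I, the HLA molecules that inhibit NK cells. H69 (NCI-H69) is a human SCLC line labelled MHC class I low or negative, and H69M is a line derived from it and labelled high. H69M cells were also sorted on the surface protein PD-L1 into a low or negative fraction, labelled MHC class I low or negative, and a high fraction, labelled high. H69EZ was derived from H69 by exposure to an EZH2 inhibitor for 6 days, with drug-free culture afterwards and choice of adherent cells, and was sorted on HLA-ABC into a low or negative and a high fraction. The mouse line 631RPP is labelled low, and RPP-A, chosen from it for adherent growth, is labelled high. Each group held 3 libraries, except the H69EZ fractions with 2 each. Every derived group goes back to 1 parent line of its species, and the labels do not say whether libraries of a group came from separate cultures. The p-values therefore weigh only how far these libraries vary, and part of that variation may be technical.

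NKG2D recognises proteins that resemble MHC class I chains but carry no peptide: MICA and MICB, and the ULBP family, many of which are anchored to the membrane by a lipid. Healthy tissue displays little of them, while DNA damage, heat shock, infection and oncogenic signalling are known to raise them. NCR3LG1 encodes B7-H6, a B7 family protein that NKp30 recognises on tumour cells. Loss of MHC class I removes an inhibitory signal from the tumour cell surface, and NK cells weigh that loss against the activating ligands present.

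The starts of these genes show how the members are related, and 5 of the 6 human promoters are printed because their genes carried the results below. Each sequence is the 250 bases before the start of transcription in RefSeq, on GRCh38.p14, read 5′ to 3′ on the strand of the gene, and stops before the transcript begins. All 6 human members matched the RefSeq promoter table. Capitals mark the heat shock element (GAANNTTC) and the GC box (GGGCGG), each searched on both strands.
MICA, chr6:31403345-31403594, plus strand: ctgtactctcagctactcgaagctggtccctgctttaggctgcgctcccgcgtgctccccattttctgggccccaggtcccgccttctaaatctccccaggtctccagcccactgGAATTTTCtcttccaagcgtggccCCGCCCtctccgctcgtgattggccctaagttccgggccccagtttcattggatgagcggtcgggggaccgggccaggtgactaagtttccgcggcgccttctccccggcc
MICB, chr6:31497895-31498144, plus strand: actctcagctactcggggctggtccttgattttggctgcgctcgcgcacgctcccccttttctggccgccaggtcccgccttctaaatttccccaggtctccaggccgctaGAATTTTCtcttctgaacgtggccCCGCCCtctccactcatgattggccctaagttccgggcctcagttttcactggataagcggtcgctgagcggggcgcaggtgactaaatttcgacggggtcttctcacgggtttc
ULBP1, chr6:149963693-149963942, plus strand: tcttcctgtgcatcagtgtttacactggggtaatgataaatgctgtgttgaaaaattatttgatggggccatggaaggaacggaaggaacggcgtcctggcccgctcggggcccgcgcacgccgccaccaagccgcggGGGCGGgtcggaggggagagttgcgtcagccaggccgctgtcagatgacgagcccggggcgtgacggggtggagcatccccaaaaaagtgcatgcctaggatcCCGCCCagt
ULBP3, chr6:150069122-150069371, minus strand: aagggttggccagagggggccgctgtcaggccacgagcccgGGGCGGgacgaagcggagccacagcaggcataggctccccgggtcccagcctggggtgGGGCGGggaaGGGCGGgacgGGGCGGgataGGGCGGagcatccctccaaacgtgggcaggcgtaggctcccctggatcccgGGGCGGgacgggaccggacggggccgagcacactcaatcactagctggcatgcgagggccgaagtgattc
NCR3LG1, chr11:17351550-17351799, plus strand: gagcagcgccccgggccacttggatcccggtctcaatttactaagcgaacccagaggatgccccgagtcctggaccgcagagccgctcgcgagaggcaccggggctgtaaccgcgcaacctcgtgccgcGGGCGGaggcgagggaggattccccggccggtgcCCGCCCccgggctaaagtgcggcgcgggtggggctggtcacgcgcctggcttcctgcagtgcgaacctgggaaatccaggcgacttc

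The MICA and MICB windows were identical at 85.4% of aligned bases (210 of 246), whereas the other 35 pairs among the human NKG2D ligand and NCR3LG1 windows reached 43.9% to 62.9%. MICA and MICB each held a heat shock element of the same letters, with its start 135 bases before the transcript in MICA and 139 in MICB. That motif occurred in 5.78% of the 35116 human promoter windows of the same length. The GC box, a site of Sp1 family factors, occurred once in MICA, MICB and ULBP2, at 2 places in ULBP1 and NCR3LG1, and at 6 places in ULBP3, and 42.6% of all windows held it. None of the 6 members held the letters searched for AP-1 (TGANTCA), CRE (TGACGTCA), the ISRE, NF-kB, E2F (TTTGGCGC or TTTCGCGC), the E-box (CACGTG), TEAD (GGAATG) or the TATA box (TATAAA). These matches are descriptions of letters and say nothing of binding.

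Total counts ran from 12814594 to 26834561 in the H69 table, from 40568796 to 52458228 in the H69EZ table and from 10817795 to 19973785 in the mouse table. Levels are given in CPM, the usual depth-scaled unit, that is counts relative to the library total after TMM scaling. A change was called where the edgeR quasi-likelihood test gave a Benjamini-Hochberg adjusted p under 0.05 over all genes tested. HLA-B, a heavy chain of MHC class I, and B2M, its light chain, followed the labels in both human tables. HLA-B measured 1.73 ± 0.465 CPM in H69 and 78.2 ± 3.996 in H69M, and 5.77 ± 2.80 and 451 ± 43.2 in the PD-L1 low and high fractions (mean ± SD, n = 3). Leukocyte markers summed to between 1.29 and 3.66 CPM in every human library. In the mouse table the RPP library in the column EHK_RPP4 and the RPP-A library in the column RPPM3 stood apart from the other libraries of their groups.

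Within H69M, the sort on PD-L1 split the members: MICA appeared in the MHC class I high fraction while MICB, ULBP1 and NCR3LG1 fell there. Among the 5 members tested, 1 rose and 3 fell in the PD-L1 high fraction against the low fraction. Over all 15445 genes tested 39.0% rose and 39.4% fell, so such a share of changed genes is close to the background. MICA, whose product is a stress-induced NKG2D ligand, had 0 reads in all 3 PD-L1 low libraries and 11, 12 and 11 reads in the high libraries, or 0.538, 0.641 and 0.774 CPM. The fractions did not overlap, and against a floor of 3 counts over the low group MICA was at least 12.3-fold higher in the high fraction (adjusted p = 1.48e-06). MICA passed the filter on low counts through the PD-L1 high fraction alone, so its test could hardly give another result. The annotated exons of MICA share 62 bases with HCP5 on the same strand, so reads there cannot be told apart by gene.

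MICB, the close relative of MICA, moved the other way. It measured 12.9, 10.8 and 15.3 CPM in the PD-L1 low libraries and 2.54, 2.35 and 1.97 CPM in the high libraries. Every low library stood above every high library, and MICB fell by 2.46 ± 0.15 on the log2 scale (SE; adjusted p = 6.76e-12). In bulk RNA, fewer cells with a transcript and less of it per cell cannot be told apart, here and in all that follows. ULBP1, a lipid-anchored NKG2D ligand, measured 6.74, 6.00 and 6.73 CPM in the low libraries and 1.08, 0.748 and 0.703 CPM in the high libraries. The fractions were again separate, with a fall of 2.90 ± 0.20 (log2; adjusted p = 3.75e-11).

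NCR3LG1, the NKp30 ligand, was the member with the most reads. It measured 62.3, 56.7 and 62.3 CPM in the PD-L1 low libraries and 22.8, 22.6 and 20.7 CPM in the high libraries, with no overlap. The fall was 1.45 ± 0.07 on the log2 scale (adjusted p = 2.41e-13). ULBP2 and ULBP3, lipid-anchored ligands of NKG2D, were near the limit of detection. ULBP2 measured 0.576, 0.186 and 0.579 CPM in the low libraries and 0.930, 0.481 and 1.06 CPM in the high libraries, so the fractions overlapped. Its log2 difference of 0.89 ± 0.41 missed the threshold (adjusted p = 0.0544). It passed with DESeq2 size factors (adjusted p = 0.0465), with the replicate number as a block (0.0248), and without PD-L1 high replicate 2 (0.0199), PD-L1 low replicate 1 (0.0395) or PD-L1 low replicate 3 (0.0449). ULBP3 was below the filter in the H69 table, with 2, 0 and 0 reads in the low libraries and 7, 15 and 10 in the high libraries. The ratio of its levels was 17.4, with an exact 95% interval of 4.43 to 149 that covers counting error only, and in a fit with no filter its log2 difference was 3.86 ± 0.80 (adjusted p = 1.25e-05).

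**Figure D1:**
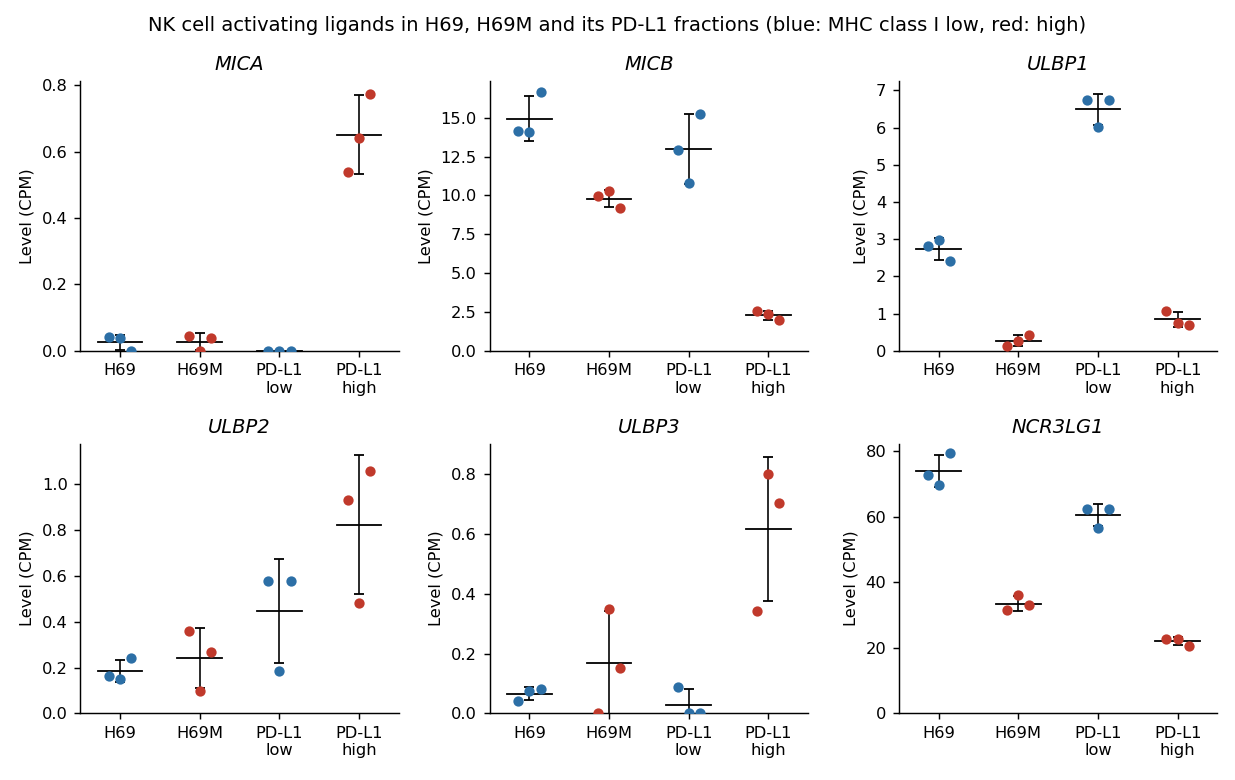
Level in depth-scaled counts (CPM, linear axes from 0) of the 6 human members in each H69, H69M, PD-L1 low and PD-L1 high library; points are libraries, horizontal lines group means and whiskers 1 SD (n = 3, cut at 0), with blue for groups labelled MHC class I low and red for high. MICA lies at 0 in the PD-L1 low libraries and between 0.538 and 0.774 CPM in the PD-L1 high ones, whereas MICB, ULBP1 and NCR3LG1 are lower in the high fraction.

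Of the remaining 3 NKG2D ligands of the human ULBP family, RAET1E and RAET1G had the higher levels in PD-L1 high libraries, as MICA did, and RAET1L was not detected. RAET1E, which encodes ULBP4, had 0 reads in each PD-L1 low library and 50, 30 and 32 in the high libraries, and was at least 40.5-fold higher there. RAET1G, which encodes ULBP5, had 1 read over the PD-L1 low libraries and 64 over the high ones, a ratio of 69.4 with an exact 95% interval of 12.02 to 2784. The fractions did not overlap for either gene. RAET1L had 0 reads in all 12 libraries of the table and was not tested. RAET1E and RAET1G also passed the filter through the PD-L1 high fraction. Their exons overlap the antisense gene RAET1E-AS1 by 68 and 138 bases, so without a stated use of strand their reads are uncertain. The exons of RAET1E also share 1050 of their 3004 bases with AL355312.5, a protein-coding gene on the same strand. Reads there cannot be told apart by gene even where strand is known. RAET1E-AS1 had 7, 3 and 1 reads in the PD-L1 low libraries and 7, 14 and 10 in the high libraries. ULBP2, RAET1G and RAET1L are close relatives, and how reads that fit several of them were counted is not given in the sources used here.

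Between the parent line and the unsorted derived line, which carry the same difference in label, every member that passed the test fell. In H69M against H69, 0 of 5 members rose and 3 fell, where 35.9% of all genes tested rose and 36.6% fell. ULBP1 measured 2.82, 2.98 and 2.42 CPM in the H69 libraries and 0.135, 0.249 and 0.421 CPM in the H69M libraries. All H69M libraries were below all H69 libraries, and the fall was 3.31 ± 0.27 on the log2 scale (edgeR, adjusted p = 1.17e-09). NCR3LG1 measured 72.8, 69.7 and 79.3 CPM in H69 and 31.5, 36.03 and 32.9 CPM in H69M, a fall of 1.14 ± 0.07 (log2; adjusted p = 6.52e-12) with no overlap. MICB measured 14.1, 14.05 and 16.6 CPM in H69 and 9.93, 10.3 and 9.18 CPM in H69M, again with no overlap. The MICB fall of 0.59 ± 0.11 (log2; adjusted p = 7.20e-05) was the smallest of the 3.

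MICA had 1, 1 and 0 reads in the H69 libraries and 1, 0 and 1 in the H69M libraries, at which depth no difference was detectable. The ratio of its levels was 0.930, with an exact 95% interval from 0.0674 to 12.8. ULBP2 had 4, 4 and 3 reads in H69 and 8, 2 and 7 in H69M, with a log2 difference of 0.51 ± 0.61 (adjusted p = 0.467). ULBP3 had 1, 2 and 1 reads in H69 and 0, 7 and 4 in H69M, a ratio of 2.56 with an interval from 0.758 to 11.02. For all 3 genes the libraries overlapped. Among the other NKG2D ligands RAET1G had 1, 1 and 0 reads in H69 and 4, 5 and 7 in H69M, while RAET1E had 6, 9 and 3 in H69 and 12, 8 and 6 in H69M.

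The contrast of the PD-L1 sort and the H69M line change was tested directly in the same fit, in which 71.4% of genes differed. The log2 change in the sort was higher than that between the lines by 6.79 ± 1.90 for MICA (edgeR, adjusted p = 0.00385), a fitted value that rests on groups with 0 to 2 reads and on a gene that the PD-L1 high fraction alone carried past the filter, so its direction was close to fixed. It was lower for MICB by 1.87 ± 0.19 (adjusted p = 3.70e-08) and for NCR3LG1 by 0.31 ± 0.10 (adjusted p = 0.00867). For ULBP1 the changes did not differ beyond their error, at 0.40 ± 0.39 (adjusted p = 0.367), and likewise for ULBP2, at 0.39 ± 0.78 (adjusted p = 0.672).

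Across the 4 groups of the H69 table the members followed different orders. For ULBP1 the order of mean levels was H69M (0.268 CPM), PD-L1 high (0.843), H69 (2.74) and PD-L1 low (6.49), and no neighbours overlapped. All 3 steps passed the test: PD-L1 high was above H69M by 1.61 ± 0.36 on the log2 scale (adjusted p = 5.61e-04) and below H69 by 1.69 ± 0.23 (adjusted p = 1.04e-06), and PD-L1 low was above H69 by 1.21 ± 0.15 (adjusted p = 5.04e-07). Unsorted H69M thus lay below all 6 libraries of the fractions sorted from it. The same was true of 1536 of the 15445 genes tested, or 9.94%. For NCR3LG1 the order was PD-L1 high (22.03 CPM), H69M (33.5), PD-L1 low (60.4) and H69 (73.9), with no overlap between neighbours. Its steps were 0.60 ± 0.07, 0.85 ± 0.07 and 0.29 ± 0.07 on the log2 scale, and each passed the test (adjusted p = 5.43e-07, 1.44e-09 and 5.37e-04). In NCR3LG1, unsorted H69M lay 70.2% of the way from the low to the high fraction on the CPM scale.

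For MICB the order was PD-L1 high (2.29 CPM), H69M (9.79), PD-L1 low (12.98) and H69 (14.9). The PD-L1 low fraction was above H69M by 0.39 ± 0.11 on the log2 scale (adjusted p = 0.00492), while it and H69 overlapped and did not differ beyond their error, at -0.20 ± 0.11 (adjusted p = 0.0983). Without PD-L1 low replicate 3 that last difference was -0.31 and passed (adjusted p = 0.0146). Unsorted H69M lay 29.9% of the way from the low to the high fraction for MICB. The same measure was 16.3% for HLA-B, 17.6% for B2M, 25.7% for VIM (vimentin), 28.8% for CD274, the gene of the sorted protein, and 41.2% for INSM1, a neuroendocrine factor, so MICB lay within their range. For MICA the 3 lowest groups held 0 to 2 reads each and could not be ordered, and the PD-L1 high fraction was above H69M at a ratio of 21.8 (exact 95% interval 5.59 to 187). For ULBP2 the order was H69 (0.185 CPM), H69M (0.242), PD-L1 low (0.447) and PD-L1 high (0.822), and each pair of neighbours overlapped. PD-L1 high exceeded H69 by 2.18 ± 0.49 and H69M by 1.68 ± 0.44 on the log2 scale (adjusted p = 4.55e-04 and 0.00231). ULBP2 passed the filter through PD-L1 low and PD-L1 high libraries alone, with none of H69 or H69M, so those tests leaned toward a rise.

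Against H69 itself, 2 members were higher in the PD-L1 low fraction and 1 was lower, where 39.0% of all genes rose and 36.9% fell. The 2 were ULBP1, above, and ULBP2, at 1.29 ± 0.56 on the log2 scale with overlapping libraries (adjusted p = 0.0422). No H69 library carried ULBP2 past the filter, so its test against H69 leaned toward a rise. The ULBP2 call was lost with DESeq2 (adjusted p = 0.0689), with limma-voom (0.0836), in a fit of those 2 groups alone (0.0508), and without H69 replicate 1 (0.0992), H69 replicate 2 (0.118), PD-L1 low replicate 1 (0.196) or PD-L1 low replicate 3 (0.107). In PD-L1 high against H69, 2 members rose and 3 fell (background 38.1% and 39.5%), and in PD-L1 high against H69M, 3 rose and 2 fell (background 37.8% and 32.6%). MICA and ULBP2 were among the members that rose in both, and no library of H69 or H69M carried either past the filter. In PD-L1 low against H69M, 3 rose and 0 fell (background 32.6% and 33.0%), and ULBP2 was called higher as well once PD-L1 low replicate 2 was left out (log2 difference 1.20, adjusted p = 0.0389). These comparisons share libraries with each other and with the sort.

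In the H69EZ fractions, sorted on HLA-ABC instead of PD-L1, the members split again, with ULBP1 now on the other side. All 6 members were tested, of which 4 rose and 2 fell in the HLA high fraction, against a background of 41.1% and 40.2% among 14819 genes. With 2 libraries a group, the spread was pooled wholly across genes. MICA had 0 reads in both HLA low libraries and 240 and 185 reads in the high ones, or 4.81 and 4.82 CPM, at least 150-fold higher against a floor of 3 counts over the low group. ULBP3 had 0 and 1 reads in the low libraries and 193 and 142 in the high ones, a ratio of 355 with an exact 95% interval of 63.4 to 14080. ULBP2 measured 0.0988 and 0.0696 CPM in the low libraries and 1.06 and 1.41 CPM in the high ones, a rise of 3.79 ± 0.41 on the log2 scale (adjusted p = 7.35e-20). The fractions were apart for all 3 genes. All 3 passed the filter through the HLA high fraction alone, so their tests could hardly give another result. The count of members that rose therefore cannot be weighed against the background.

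ULBP1 measured 3.14 and 3.85 CPM in the HLA low libraries and 4.67 and 6.18 CPM in the high libraries. The high libraries were both above the low ones, and the rise was 0.62 ± 0.13 on the log2 scale (edgeR, adjusted p = 4.02e-06). MICB measured 74.9 and 75.6 CPM in the low libraries and 32.8 and 32.6 CPM in the high libraries, a fall of 1.20 ± 0.07 (log2; adjusted p = 4.28e-60). NCR3LG1 measured 105 and 109 CPM in the low libraries and 44.8 and 45.5 CPM in the high ones, a fall of 1.25 ± 0.07 (log2; adjusted p = 2.07e-71). For both genes the fractions were far apart beside the spread within them. RAET1E had 0 and 0 reads in the low libraries and 22 and 26 in the high ones, and RAET1G 1 and 1 against 24 and 26. RAET1L, at 1 and 0 against 2 and 3 reads, was not tested.

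**Figure D2:**
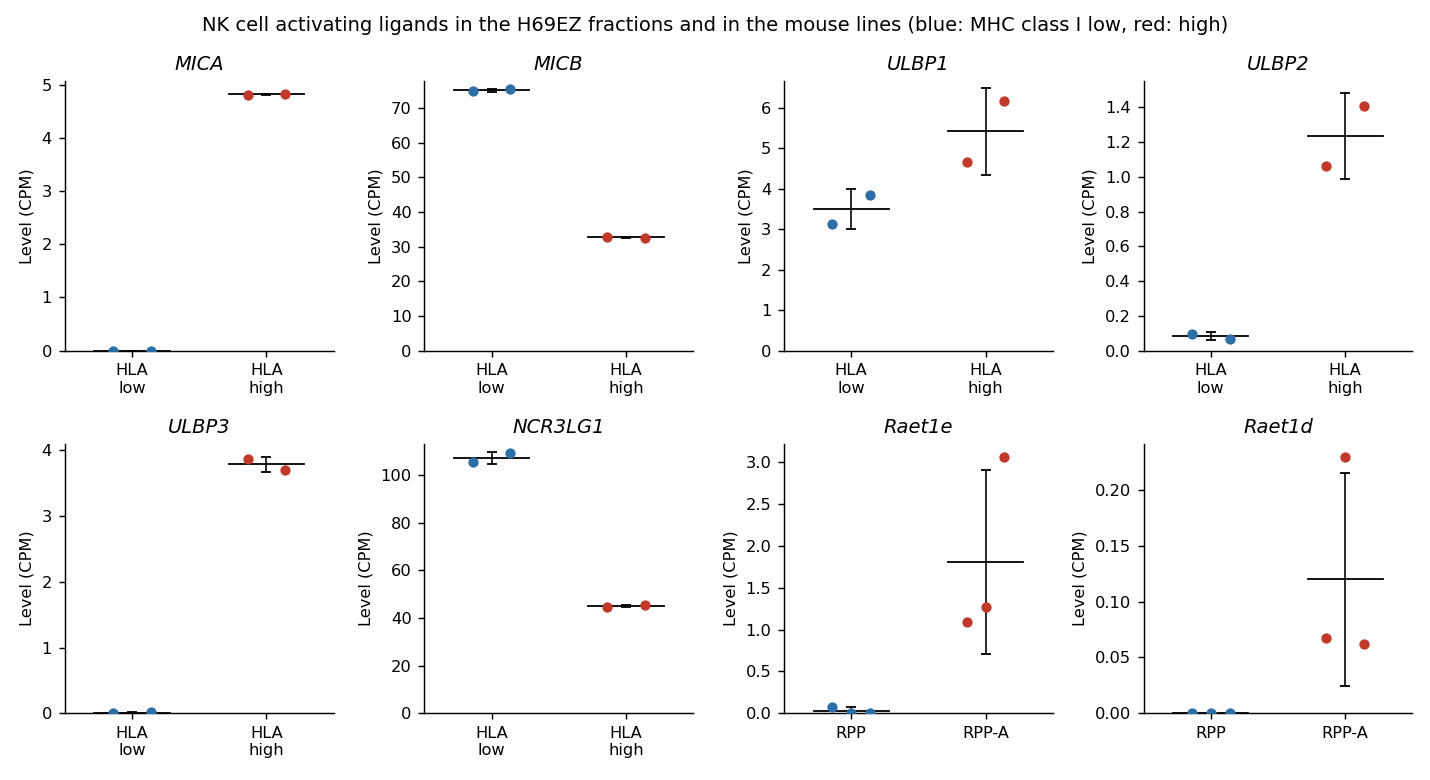
Level in depth-scaled counts (CPM, linear axes from 0) of the 6 human members in the H69EZ fractions sorted on HLA-ABC (n = 2) and of mouse Raet1e and Raet1d in the RPP and RPP-A lines (n = 3); points are libraries, lines group means and whiskers 1 SD, with blue for MHC class I low and red for high. MICA, ULBP2, ULBP3 and Raet1e are near 0 in the low groups, MICB and NCR3LG1 are lower in the high fraction, and ULBP1 is somewhat higher there.

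The 3 human comparisons thus shared the falls of MICB and NCR3LG1 and differed in ULBP1, as the plot of fold changes by gene shows. Of all genes tested, 36.6% fell between the lines, 39.4% in the PD-L1 sort and 40.2% in the HLA sort. The share that fell in all 3 was not counted. All groups go back to H69 and the PD-L1 fractions came from H69M, so the comparisons are not independent. The tables were normalised separately and the H69EZ table was not fitted with the other, so the difference in ULBP1 between the sorts was not tested. Levels of different genes were also set beside each other after division by length, as a rough description. The libraries were made by exome capture, whose yield for each gene is not known, and the lengths come from another build than the counts. In H69, NCR3LG1 stood above MICB both per kilobase of annotated exon (11.5 against 5.34 CPM per kb) and per kilobase of coding sequence (54.3 against 13.0). In the HLA low fraction of H69EZ the order depended on the length used, with 26.9 for MICB and 16.7 for NCR3LG1 per kilobase of exon and 65.5 and 78.8 per kilobase of coding sequence. In the HLA high fraction MICA reached 2.02 CPM per kilobase of exon, against 11.7 for MICB, 3.83 for ULBP3, 1.73 for ULBP1 and 0.915 for ULBP2. MICB thus remained the NKG2D ligand with the highest level per kilobase of exon among these 5 in that fraction, after its fall.

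**Figure D3:**
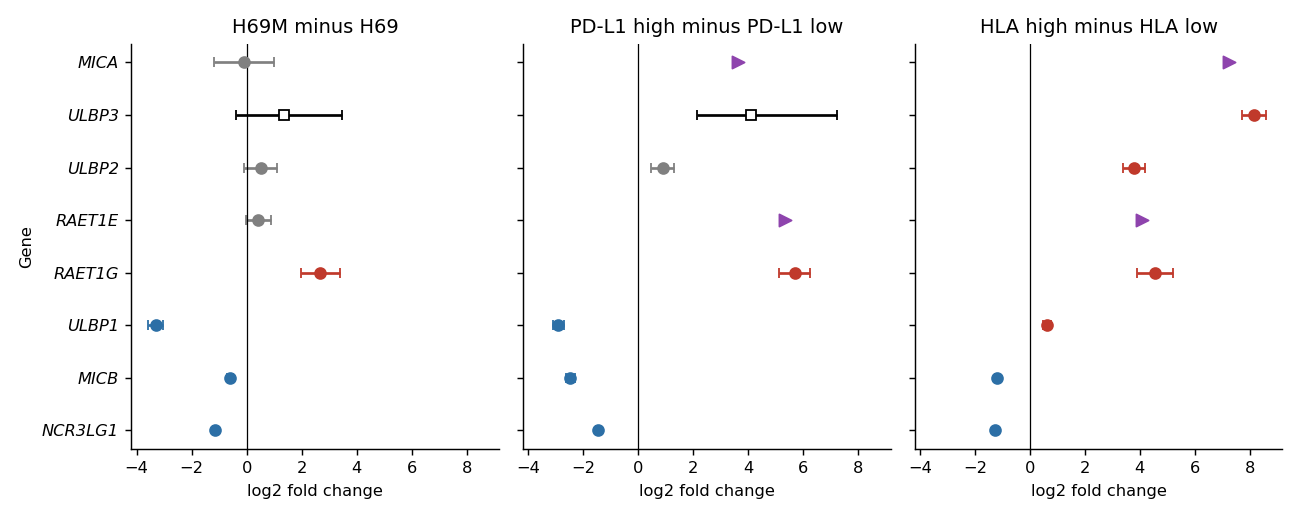
Log2 fold change of each human NKG2D ligand and NCR3LG1 (rows) in the 3 human comparisons (panels); filled circles are edgeR estimates with SE, coloured red for called higher, blue for called lower and grey for neither, purple triangles are lower bounds where a group held 0 reads, and open squares are ratios of levels with exact 95% counting intervals for ULBP3, which was below the filter. MICB and NCR3LG1 lie left of 0 in all 3 panels, and ULBP1 lies left of 0 in the first 2 and right of it in the third.

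In the mouse lines the members were close to absent in RPP, and Raet1e appeared in RPP-A. Raet1e encodes a RAE-1 family protein, the mouse counterpart of the ULBP ligands of NKG2D. It had 1, 0 and 0 reads in the RPP libraries and 16, 22 and 49 in the RPP-A libraries, or up to 0.0816 CPM and 1.08, 1.26 and 3.06 CPM. The groups did not overlap, and the ratio of levels was 73.9 with an exact 95% interval of 12.9 to 2951. By edgeR the log2 difference was 5.78 ± 0.93 (adjusted p = 6.64e-04), and of the 14032 genes tested 37.6% rose and 40.6% fell. The RPP read came from the library EHK_RPP4 and the highest RPP-A value from RPPM3, the 2 libraries that stood apart. Without EHK_RPP4 the log2 difference was 7.82 (adjusted p = 0.00325), and without RPPM3 it was 5.17 (adjusted p = 8.10e-04). Raet1e passed the filter through RPP-A alone, so its test could hardly give another result.

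Raet1d, another RAE-1 gene, had 0 reads in all RPP libraries and 1, 4 and 1 in the RPP-A libraries, below the filter, and was at least 1.70-fold higher against the floor. H60b, a ligand of NKG2D outside the RAE-1 family, had 0 reads in all 6 libraries, which allows up to 0.0733 CPM in RPP and 0.0623 in RPP-A. Of the further mouse NKG2D ligands listed, Raet1a had 1, 0 and 0 reads in RPP and 9, 12 and 16 in RPP-A, and H60c had 2, 3 and 4 reads in RPP and 0 in RPP-A. Raet1b and Raet1c had 0 reads in all 6 libraries. RAE-1 genes are near copies of each other, so reads may be split or lost among them. Leukocyte markers summed to 0.208 to 0.897 CPM in RPP and 30.8 to 34.4 CPM in RPP-A, with 10 and 8 of the 13 markers at 0. Nearly all of the sum in RPP-A was Cd14, a receptor for lipopolysaccharide that myeloid cells are known for, at 32.2 ± 1.90 CPM (n = 3). The part of these markers in the rise of Raet1e was not tested.

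The further lists describe the setting in which the members changed; they hold other ligands and regulators named in the field, and counts are read against the backgrounds above. The list of other activating and adhesion ligands also holds LGALS3, a galectin reported to block NKp30 and so not an activating ligand. Of its 13 genes tested in the PD-L1 sort, 11 rose and 2 fell, LGALS3 among those that rose, with a median log2 difference of 1.65 against -0.00308 over all genes. PVR and NECTIN2 (listed as PVRL2), the ligands of the activating receptor DNAM-1, rose by 1.31 ± 0.05 and 1.65 ± 0.07, and CD58, the ligand of CD2, by 1.65 ± 0.12 (log2). ICAM1, the adhesion ligand of the integrin LFA-1, measured 7.36 ± 1.86 CPM in the low and 181 ± 7.98 CPM in the high fraction. BAG6, reported as another NKp30 ligand, rose by 0.40 ± 0.06 in the PD-L1 sort and fell by 0.50 ± 0.06 in the HLA sort, whereas NCR3LG1 fell in both. CD48, the ligand of 2B4, had at most 1 read in any human library. In the HLA sort 12 of the 14 genes tested rose, LGALS3 included, and 2 fell. PVR rose there by 0.20 ± 0.06 and NECTIN2 by 0.57 ± 0.07. In the line comparison 7 of 13 rose and 4 fell, and in the mouse lines 7 of 11 rose and 2 fell, with Pvr up by 2.61 ± 0.49 and Pvrl2 by 2.67 ± 0.19. LGALS3 rose by 6.11 ± 0.10 in the PD-L1 sort and by 4.59 ± 0.09 in the HLA sort.

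Ligands of inhibitory NK receptors rose more often than they fell in the human comparisons. Of 16 tested, 11 rose and 0 fell in H69M against H69, 10 rose and 5 fell in the PD-L1 sort, and 13 rose and 3 fell in the HLA sort. CD274 encodes PD-L1 and the HLA genes encode the proteins of the HLA sort, so their changes in the respective sorts restate the gates. HLA-E, the ligand of the inhibitory receptor NKG2A, rose by 5.77 ± 0.12 in the PD-L1 sort and by 3.51 ± 0.11 in the HLA sort (log2). In the mouse lines 6 of 12 rose and 4 fell, with Cd274 down by 2.67 ± 0.17 and Clec2d, a ligand of an inhibitory NKR-P1 receptor, up by 6.89 ± 0.39.

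Shedding by metalloproteases can remove MICA, MICB, ULBP2 and B7-H6 from the cell surface, which RNA does not measure. All 8 genes of the shedding list, which includes the ADAM17 inhibitor TIMP3, rose in the PD-L1 sort and in the HLA sort, 7 of 8 rose in H69M against H69, and in the mouse lines 7 rose and 1 fell. ADAM10 rose by 0.82 ± 0.06 and ADAM17 by 0.50 ± 0.06 in the PD-L1 sort, and by 1.05 ± 0.06 and 0.73 ± 0.07 in the HLA sort (log2). MMP14, a membrane-anchored protease, measured 5.02 ± 0.644 CPM in the HLA low and 526 ± 30.7 CPM in the HLA high fraction (n = 2). TIMP3 rose by 8.33 ± 0.27 in the PD-L1 sort. In the mouse lines Adam10 was the 1 that fell, by 0.52 ± 0.09.

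Genes reported to control the ligands moved in both directions: 12 of 21 rose and 7 fell in the PD-L1 sort, 7 rose and 11 fell in the HLA sort, 4 rose and 10 fell in H69M against H69, and 9 rose and 8 fell in the mouse lines. ATF4, a stress-response factor reported to drive ULBP1, measured 321 ± 21.6 CPM in H69, 192 ± 2.22 in H69M, 439 ± 8.52 in PD-L1 low and 180 ± 5.62 in PD-L1 high. In PD-L1 high against H69M the ATF4 log2 difference of -0.10 ± 0.05 did not pass the test (adjusted p = 0.0981). In the HLA sort ATF4 fell by 1.30 ± 0.06. The part of ATF4 in the levels of ULBP1 was not tested. EZH2, the histone methyltransferase whose inhibition preceded H69EZ, fell by 0.53 ± 0.05 in the PD-L1 sort and by 0.55 ± 0.06 in the HLA sort. MYC rose by 2.79 ± 0.11 and 3.77 ± 0.09 in the 2 sorts, and MYCN fell by 1.76 ± 0.05 and 1.70 ± 0.06. NFKB1, a subunit of NF-kB, rose by 3.74 ± 0.09 and 3.54 ± 0.09. E2F1 and E2F2 were lower in the high fraction of both sorts. In the PD-L1 sort they went from 366 ± 21.1 to 115 ± 4.21 CPM and from 171 ± 7.80 to 53.4 ± 3.00 CPM (n = 3). In the HLA sort they went from 173 ± 1.86 to 70.0 ± 1.34 CPM and from 73.6 ± 1.11 to 26.4 ± 1.65 CPM (n = 2).

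Heat shock genes were counted because the MICA and MICB promoters printed above hold a heat shock element. Of 10 heat shock targets, 7 rose and 1 fell in the PD-L1 sort, whereas 1 rose and 6 fell in the HLA sort. HSPA1A, an inducible Hsp70, rose by 0.45 ± 0.08 in the PD-L1 sort and fell by 2.19 ± 0.07 in the HLA sort, from 189 ± 10.1 to 41.3 ± 1.93 CPM (n = 2). In H69M against H69, 5 of the 10 targets rose and 1 fell, and in the mouse lines 7 rose and 0 fell. The part of heat shock in the levels of MICA and MICB was not tested.

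**Figure D4:**
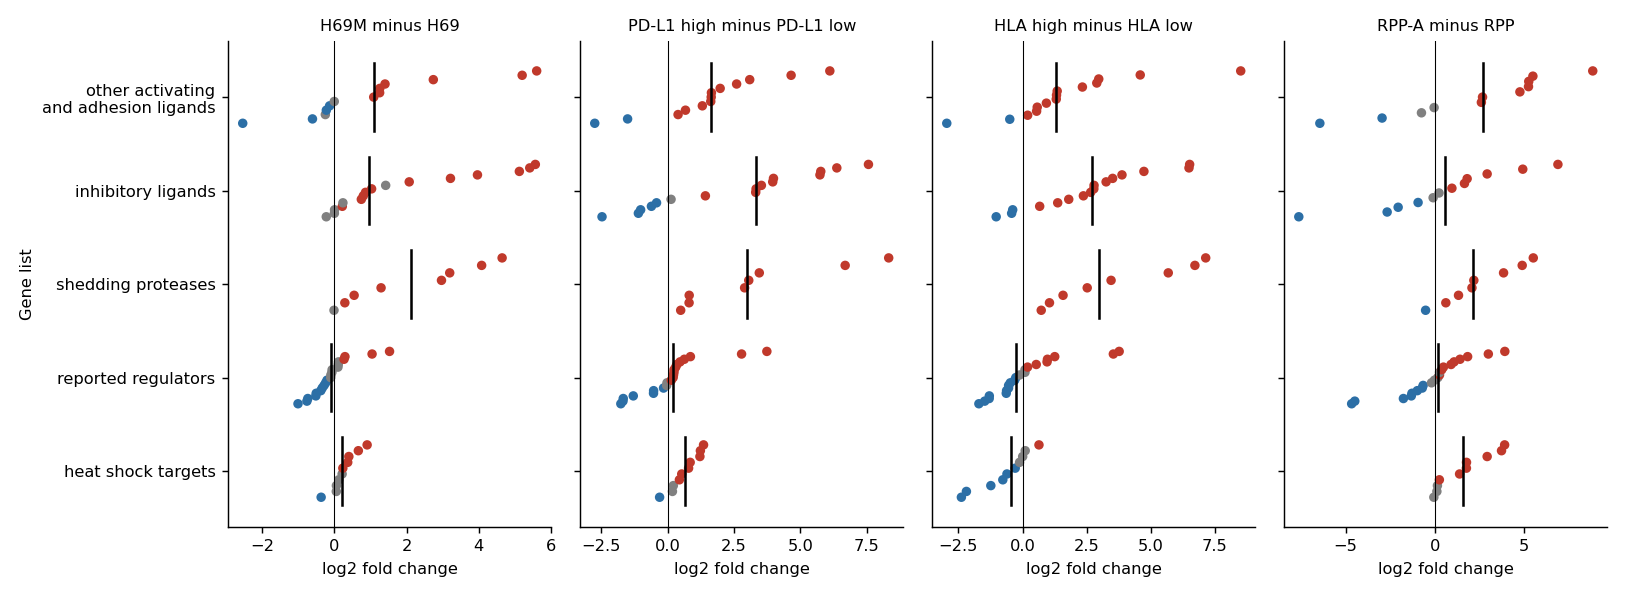
Log2 fold changes of the tested genes of 5 lists (rows) in the 4 comparisons (panels, each with its own linear axis); each point is a gene, red where called higher, blue where called lower and grey where neither, and vertical bars are list medians. The 8 genes of the shedding list lie right of 0 in the PD-L1 and HLA sorts, whereas the heat shock targets lie mainly right of 0 in the PD-L1 sort and mainly left of it in the HLA sort.

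Markers of the neuroendocrine state, by which SCLC is classed, moved with the same groups. Their summed level ran from 4359.5 to 4584 CPM in the PD-L1 low libraries and from 1419 to 1462 CPM in the high ones, and from 2206 to 2228 CPM in HLA low and 737 to 769 CPM in HLA high. MICB and NCR3LG1 were lower wherever that sum was lower in the 2 sorts. Between H69 and H69M the sums overlapped, at 3222 to 3409 and 3229 to 3320 CPM, but INSM1 makes up much of the sum and the markers moved both ways, with 3 of 6 called higher and 2 lower. NCAM1, a neural adhesion molecule, went from 523 ± 10.2 CPM in H69 to 256 ± 6.43 CPM in H69M (n = 3). Markers of the non-neuroendocrine state summed to 0.121 to 0.302 CPM in H69 and 743 to 781 CPM in H69M, and to 24.5 to 50.3 CPM in PD-L1 low and 2843 to 2917 CPM in PD-L1 high. The part of either state in the changes of the members was not tested.

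Over the 12 libraries of the H69 table, the genes whose log2 level most resembled each member are given as a description, since libraries of a group share their source. For MICA they were STAT2 (Pearson r = 0.989), a signal transducer of type I interferon receptors, FGF12 (0.988) and ITPRIPL2 (0.984), with STAT2 at 35.2 CPM in PD-L1 low and 131 CPM in PD-L1 high. MICA held at most 1 read in any library outside PD-L1 high, so its likeness rests on the step between that fraction and the rest. For MICB they were INTS7 (0.995), a subunit of the Integrator complex, COBL (0.994), an actin nucleator, and PHKA1 (0.994), a subunit of phosphorylase kinase. For ULBP1 they were CPD (0.992), a carboxypeptidase, STC2 (0.982), a secreted glycoprotein, and BAI2 (0.981), an adhesion receptor. STC2 measured 257, 130, 363 and 185 CPM in H69, H69M, PD-L1 low and PD-L1 high, the order of ULBP1. For NCR3LG1 they were GLDN (0.996), DSCAM (0.996), a neuronal adhesion protein, and BMP6 (0.995), a growth factor. For ULBP2, whose reads were also few, the likeness was weaker, with DNM3 (0.878) first. These names come from 12635 genes compared and mark likeness of pattern only.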

How the data were processed

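Libraries were made by exome capture from 250 ng of RNA, per the labels' protocols. The authors deposited 3 tables of unnormalised counts (whole numbers per gene symbol), of which the first covers H69, H69M and the PD-L1 sort, the second the HLA sort of H69EZ, and the third the mouse lines. The submitters' processing notes name STAR 2.6.1 and the builds hg19 and mm10. The counting program, its annotation, its use of strand and its handling of reads that fit several genes are not given in the sources used. Mouse columns were assigned by group from their names, with RPPM taken as RPP-A. The members and the gene lists were chosen with earlier results of these data known.

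Each table was fitted separately with edgeR 4.0.16 (R 4.3.3): TMM, filterByExpr with a minimum count of 10, a quasi-likelihood F-test with 1 coefficient per group of the table, and Benjamini-Hochberg adjustment over the 15445, 14819 and 14032 genes tested, two-sided. SEs of log2 fold changes were derived as the absolute change divided by the square root of F. Ratios of levels in sparse genes are of summed counts over summed scaled totals, with exact 95% binomial intervals for counting error only, and folds against 0 reads use a floor of 3 counts over the group. All members are named. From each further list at most 6 called genes of non-overlapping groups were named. They were picked among those with the largest changes, not all of which are named. HLA-B, HLA-C, HLA-E, B2M, PVR, NECTIN2, BAG6, CD48, CD58, ADAM10, ADAM17, CD274 and EZH2 were set as reference genes besides. All other NKG2D ligands listed are named too, while Cd14, NCAM1, INSM1, VIM, and HSPA1A in the PD-L1 sort, were picked after their values were seen. Likeness is Pearson's r of log2 CPM (prior count 2) among genes of mean log2 CPM of at least 1. The fits were checked on simulated counts. Alternatives were DESeq2 1.42.0 (test and size factors), limma 3.58.1 with voom, library totals without TMM, no filter, a minimum count of 100, the compared groups alone, the replicate number as a block, and each library left out. RefSeq promoters and GENCODE exon lengths are on GRCh38, another build than the counts.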

Additional observations from a re-analysis of the deposited data

Results flagged for a closer look

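The change between the PD-L1 fractions and the change between H69 and H69M were compared by the direct test, which called 4 ligands. MICA and RAET1E are tested because the PD-L1 high fraction, where they are high, carried them past the filter, and the PD-L1 low fraction held 0 reads of either, so a larger change in the sort was close to fixed for both and their fitted values are descriptions. For MICA the sort gave a log2 change higher by 6.79, from 0 against 34 reads in the fractions and 2 against 2 in the lines. For RAET1E it was higher by 7.99, from 0 against 112 reads in the fractions and 18 against 26 in the lines. For MICB and NCR3LG1, which fell in both comparisons, the sort gave the larger fall, with differences of -1.87 and -0.31.

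ULBP1 went in opposite directions in every library of the groups compared. It was lower in the MHC class I high group in H69M against H69 (log2 change -3.31) and in the PD-L1 sort (-2.90), and higher in the HLA sort of H69EZ (0.62). This difference between the comparisons was not tested, since the tables were fitted separately.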

How the results depend on the processing

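Of 577 values of single members under an alternative, 559 kept their direction and side of the threshold, 7 gained the call, 7 lost it and 4 reversed. The reversals concerned values that were not called: MICA in H69M against H69 was 0.15 without H69 replicate 1, 0.10 without H69 replicate 2 and 0.36 without H69M replicate 2 (range -0.43 to 0.36 with 1 library left out), and the ULBP2 difference between the sort and the lines was -0.026 without PD-L1 low replicate 2 (range -0.026 to 0.73). A minimum count of 100 removed sparse members from the tests, so that the members called higher went from 1 to 0 in the PD-L1 sort, from 2 to 0 in PD-L1 high against H69, from 3 to 1 in PD-L1 high against H69M, from 2 to 1 in PD-L1 low against H69, from 1 to 0 in the mouse lines and from 1 to 0 in the difference between sort and lines. The 1 member higher in the PD-L1 sort became 2 with DESeq2 size factors and with the replicate block (ULBP2) and with no filter (ULBP3). The 2 members higher in PD-L1 low against H69 became 1 with the DESeq2 test, limma-voom and the compared groups alone. With 1 library left out these counts ran from 1 to 2 in the PD-L1 sort and from 1 to 2 higher and 1 to 2 lower in PD-L1 low against H69.

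Replicate numbers were not treated as pairs in the main fits. After centring on group means, same-numbered libraries of the H69 table correlated at -0.164 to 0.0946 over 18 pairs. Differently numbered ones correlated at -0.087 to 0.152 over 36 pairs, a check that does not exclude pairing. In the H69EZ table the values of 0.0379 and -0.0379 are opposite by construction, so they cannot decide it. With the replicate block, genes called were 10915 instead of 11196 in H69M against H69, 11923 instead of 12100 in the PD-L1 sort and 12031 instead of 12055 in the HLA sort. The mouse columns carry no labelled numbers, so no block was fitted there. Fitted fold changes of sparse genes moved by over 1.5 times: MICA in the PD-L1 sort was 4.64 by limma-voom and 6.09 by DESeq2 against 6.71, and ULBP3 in the HLA sort was 7.19 without HLA low replicate 1 and 10.46 without HLA low replicate 2. Library totals without TMM shifted the median of all genes by -0.405 in the mouse lines, by -0.151 in the HLA sort and by -0.142 in the PD-L1 sort, and no called member changed direction. Depth limits MICA, ULBP2 and ULBP3 in the H69 table and the mouse members, which rest on few reads in at least 1 group of each comparison.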
